A study of Mus musculus with 2 samples.

Results

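A set of 396 autosomal regions at the ends of protein-coding genes had fewer ATAC-seq counts in stretched than in untreated epidermis of mice. They were 2.97% of 13331 autosomal gene-end regions, among 109257 merged regions. A region had to lie within 1 kb of either annotated end of a protein-coding gene and to hold at least 50 counts summed over both libraries. Its scaled ratio had to be at most 0.5. The scaled ratio is the stretched count over the control count, divided by 0.944, the median of that ratio over the 94849 regions with at least 20 summed counts and a control count above 0. The regions were thus chosen by their counts in both libraries, so the lower values below are a description and carry no test.

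ATAC-seq reads open chromatin through the transposase Tn5, which inserts sequencing adapters where DNA is accessible. The stretched library came from 1 CD1 mouse, an outbred stock, whose back skin had undergone tissue stretching, an expansion driven by force. The control library came from 1 untreated CD1 mouse. The labels state neither the animals' age nor how long the skin was stretched. Both held 10000 basal cells of the interfollicular epidermis, sorted for ITGA6 and against CD34. With 1 animal per group nothing separates stretching from differences between 2 animals or 2 libraries, and no difference has a replicate check. Every interval of a ratio is an exact 95% Clopper-Pearson interval and covers counting error only, since no molecular identifiers are described and PCR copies of a fragment can count again.

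Promoters are the stretches around a gene's start where transcription begins. In most genes that all cells use they are rich in CpG dinucleotides and accessible across tissues. Promoters of tissue-restricted genes more often lack CpG, and promoters of silent developmental regulators are often CpG-rich but held by Polycomb repressors. The far end of a gene, where transcripts terminate, can also be open, for example over enhancers or neighbouring promoters.

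The sequences below show how varied these promoters are. They are RefSeq promoter windows on GRCm38, 250 bases before to 50 after the annotated start, of the reference strain and not of these CD1 animals. Capitals mark every CpG. Shown are windows that overlap lower regions with at least 100 counts at a gene start: the 3 with the lowest scaled ratios come first, the 3 with the most counts after them.
Echdc2 (chr4:108165187-108165486, strand plus): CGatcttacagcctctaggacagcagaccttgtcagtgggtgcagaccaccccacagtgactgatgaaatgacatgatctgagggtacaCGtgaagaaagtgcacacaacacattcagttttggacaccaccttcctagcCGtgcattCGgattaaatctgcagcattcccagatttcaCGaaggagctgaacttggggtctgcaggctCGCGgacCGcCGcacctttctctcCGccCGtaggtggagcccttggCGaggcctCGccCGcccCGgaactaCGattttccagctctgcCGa
Krt77 (chr15:101869656-101869955, strand minus): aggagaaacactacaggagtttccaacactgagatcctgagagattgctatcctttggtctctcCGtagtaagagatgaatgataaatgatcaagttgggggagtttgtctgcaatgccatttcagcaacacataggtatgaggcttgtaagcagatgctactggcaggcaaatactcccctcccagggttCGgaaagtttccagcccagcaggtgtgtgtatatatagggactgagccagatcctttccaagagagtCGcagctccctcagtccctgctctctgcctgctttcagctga
H2-T3 (chr17:36190102-36190401, strand minus): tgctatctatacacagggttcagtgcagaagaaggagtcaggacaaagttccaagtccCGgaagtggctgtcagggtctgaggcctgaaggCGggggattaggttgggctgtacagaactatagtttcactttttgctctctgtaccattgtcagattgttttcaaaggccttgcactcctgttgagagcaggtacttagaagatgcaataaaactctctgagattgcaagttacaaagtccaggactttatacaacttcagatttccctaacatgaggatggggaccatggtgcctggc
Col5a1 (chr2:27886175-27886474, strand plus): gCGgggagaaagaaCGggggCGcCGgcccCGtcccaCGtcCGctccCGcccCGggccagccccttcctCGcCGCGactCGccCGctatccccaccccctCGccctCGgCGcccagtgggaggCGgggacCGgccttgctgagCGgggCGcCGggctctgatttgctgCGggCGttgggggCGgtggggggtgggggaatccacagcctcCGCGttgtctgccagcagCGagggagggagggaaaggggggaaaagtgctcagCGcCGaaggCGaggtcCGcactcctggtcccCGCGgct
Ntrk2 (chr13:58806319-58806618, strand plus): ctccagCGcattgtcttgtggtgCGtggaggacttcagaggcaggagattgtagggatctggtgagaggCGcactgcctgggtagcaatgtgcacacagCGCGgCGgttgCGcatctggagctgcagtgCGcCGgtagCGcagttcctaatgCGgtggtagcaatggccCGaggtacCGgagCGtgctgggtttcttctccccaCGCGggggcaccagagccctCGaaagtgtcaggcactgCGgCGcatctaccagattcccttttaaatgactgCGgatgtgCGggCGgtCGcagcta
Sardh (chr2:27247254-27247553, strand minus): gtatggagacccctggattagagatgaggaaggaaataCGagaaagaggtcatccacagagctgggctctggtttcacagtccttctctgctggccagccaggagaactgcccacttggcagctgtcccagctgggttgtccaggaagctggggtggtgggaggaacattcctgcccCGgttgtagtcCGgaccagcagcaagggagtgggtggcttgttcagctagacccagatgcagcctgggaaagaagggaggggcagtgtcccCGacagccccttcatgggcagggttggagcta

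The 6 windows hold 17, 3, 2, 34, 23 and 4 CpG. The observed over expected CpG ratio was 0.169 at Krt77, 0.125 at H2-T3 and 0.159 at Sardh, which are CpG-poor. It was 0.809 at Col5a1, 0.835 at Ntrk2 and 0.729 at Echdc2.

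The identity of the sorted cells was checked at gene ends. Of 14 markers of basal keratinocytes, 13 had a gene-end region with at least 50 counts. This was so for 3 of 10 markers of Langerhans and myeloid cells, 3 of 10 of T cells and 2 of 10 of fibroblasts. Among melanocyte markers it was 4 of 10, and among markers of endothelium and mural cells 5 of 10. It was also so for 13 of 14 markers of follicle stem cells and the outer root sheath and 11 of 14 suprabasal markers. Sebaceous markers gave 7 of 10, Merkel cell markers 6 of 8 and inner root sheath and hair shaft markers 7 of 12. The measure thus does not separate basal cells from these other epithelial types. Cd207, Ptprc, Cd3e, Col3a1, Pdgfra and Pecam1 were among the markers with none, while other markers of the same lists had a region. Summed counts over the basal regions were 3095 in the stretched and 2844 in the control library. They were 135 and 127 for the myeloid list, 188 and 248 for the T cell list and 203 and 233 for the fibroblast list. The regions at both ends of Krt5, a keratin of basal cells, had 232 and 297 stretched and 237 and 306 control counts. Those of Krt14, its partner, had 274 and 358 stretched and 175 and 293 control counts, and that of Itga6, the gene of the sorting marker, 235 and 159. The gene of CD34, against which the cells were sorted, had 24 stretched and 32 control counts in one region and 167 and 109 in the other, a scaled ratio of 1.62 (1.27 to 2.08). Markers of follicle stem cells and the outer root sheath summed to 1658 stretched and 1890 control counts over 18 regions, with a median log2 scaled ratio of -0.27 against 0.24 over all gene-end regions. None of the 15 basal regions was among the 396. The part of a changed mix of cells in the lower counts was not tested.

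The regions were gathered as promoters, and that name holds for some of them only. The strand of the nearby genes was known for 294 of the 396 regions. Of these, 188 (63.9%) lay within 1 kb of an annotated start and 106 (36.1%) lay at far ends alone. Over all gene-end regions with known strand 87.8% lay at a start, and over the 926 such regions with a scaled ratio of at least 2 it was 95.2%. A RefSeq promoter window overlapped 136 of the 396 regions (34.3%), against 64.8% of the other gene-end regions. The regions are therefore called lower gene-end regions here.

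**Figure D1:**
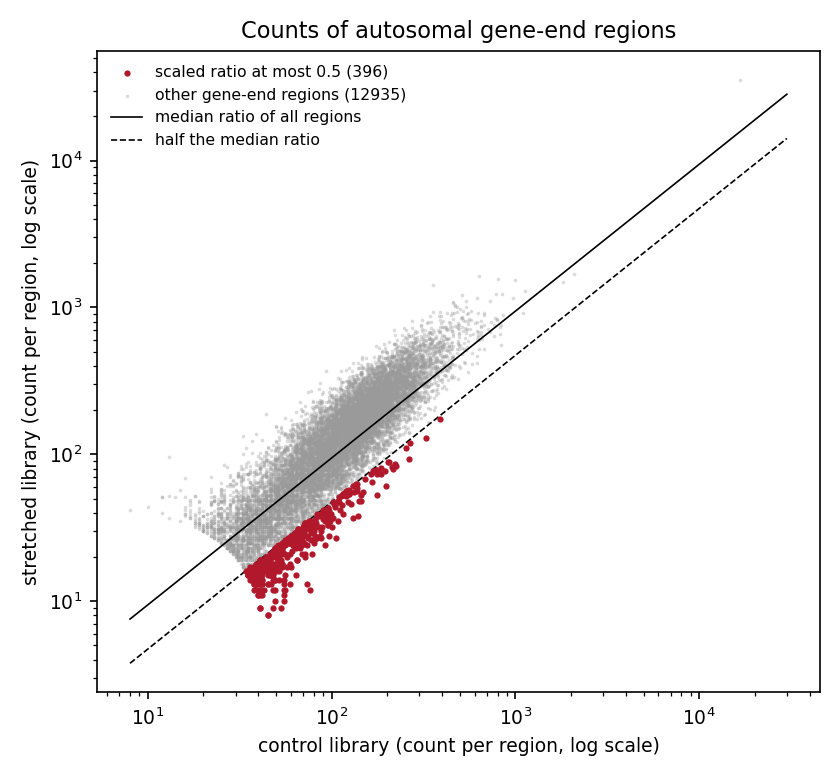
Count of each autosomal gene-end region in the stretched library (vertical, log scale) against the control library (horizontal, log scale), with the 396 lower regions in red. The solid line is the median ratio of all regions and the dashed line the limit of 0.5; the lower regions fill the edge of the cloud, with 34 to 389 control counts.

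The lower gene-end regions had few counts, as their choice favours. Their stretched counts ranged from 8 to 175 with a median of 24, and their control counts from 34 to 389 with a median of 59. Other gene-end regions had medians of 123 stretched and 108 control counts. Per kb of region the medians were 28.1 stretched and 71.2 control counts in the lower regions, and 94.6 and 84.2 in the others. At like counts the control library held more per kb in lower than in other regions. The medians were 63.0 and 47.8 from 50 to 99 counts and 85.7 and 64.6 from 100 up to 200. The choice brings this about, since a low ratio at a like summed count needs a higher control count. Of the 396 regions, 15 had a scaled ratio under 0.25, 125 from 0.25 to 0.4 and 256 from 0.4 to 0.5. The lowest was 0.167, near the far end of Ltn1, a ubiquitin ligase of stalled ribosomes, with 12 stretched and 76 control counts. Ltn1 is named for that value and falls outside the naming rule.

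At the limit itself the values run on without a break. Just inside, regions near Mylk, Tmem94 and Lbx1 each had 34 stretched and 72 control counts, a scaled ratio of 0.5. A region near Vmn2r87 had 17 and 36, also 0.5. Just outside, a region of Arhgap23 had 44 stretched and 93 control counts, a scaled ratio of 0.501. Regions of Tbc1d17 and Shmt2 had 62 and 131 each, and one near Tcp11 had 18 and 38, with scaled ratios of 0.501, 0.501 and 0.502. All 396 intervals lay below 1, which the ratio limit and the count minimum bring about by themselves. In 29 regions the whole interval lay below 0.5.

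Over all 13331 gene-end regions, 2.97% met the limit of 0.5, and 8.6% had a scaled ratio of at least 2. This balance depended on the scaling. The lower and higher regions numbered 396 and 1146 here, 1587 and 90 when scaled by total counts, 613 and 678 by totals outside the 10 regions with over 10000 counts, and 399 and 444 with a trend on the count removed. Among the 46296 autosomal regions with at least 50 counts farther than 1 kb from any gene end, 7% were at most 0.5 and 5.55% at least 2. The lower share at gene ends fell with the count. It was 11.1% from 50 to 99 summed counts, 3.09% from 100 up to 200, 0.533% from 200 to 399 and 0.0668% at 400 or more, the last being 2 of 2996 regions. Of the 396, 263 had 50 to 99 counts. Because the share moved with the count, most comparisons with other gene-end regions below are also given at like counts.

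At higher counts the lower share was larger at far ends than at starts, a difference that was not tested. From 50 to 99 counts 122 of 1213 regions at starts (10.1%) and 75 of 622 at far ends (12.1%) were lower, shares that lie close together. From 100 up to 200 counts 50 of 2240 (2.23%) were lower at starts and 27 of 442 (6.11%) at far ends. At 200 or more counts the values were 16 of 5879 (0.272%) and 4 of 233 (1.72%). The last far-end share rests on 4 regions.

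**Figure D2:**
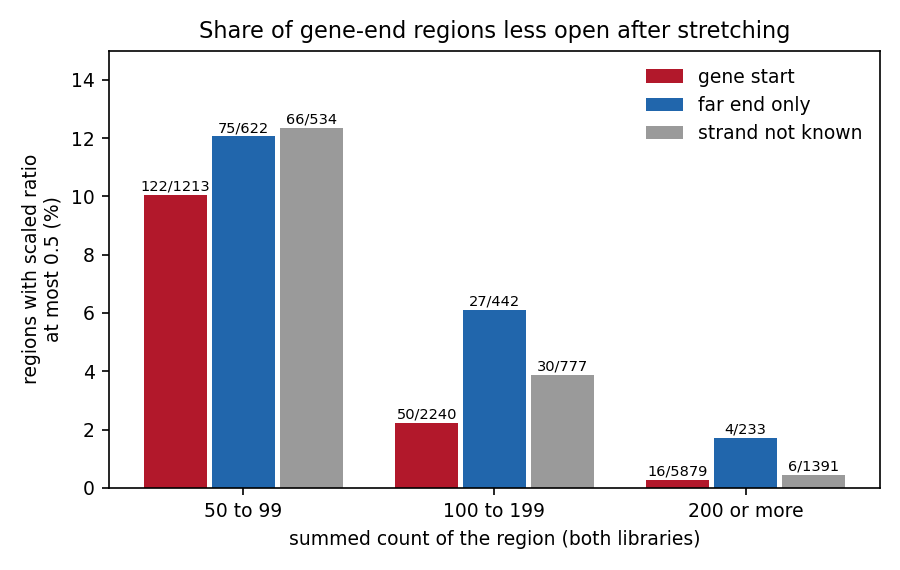
Percent of autosomal gene-end regions with a scaled ratio of at most 0.5, by summed count (horizontal) and by the gene end they lie at (colours), with the number of lower regions over all regions above each bar. From 100 up to 200 counts 2.23% of regions at gene starts and 6.11% of those at far ends were lower.

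The lowest ratios at well covered regions belonged to genes of varied roles. Among lower regions with at least 100 counts, the start of Echdc2, an enoyl-CoA hydratase family gene, had 27 stretched and 105 control counts, a scaled ratio of 0.272 (0.171 to 0.419). A region touching an end of Rflna, a filamin-binding refilin of actin networks, had 24 and 92 counts (0.276, 0.168 to 0.437). One 499 bp from the far end of Fam83g, a FAM83 family gene, had 38 and 140 (0.287, 0.195 to 0.414). The upper bound of each interval stayed under the limit of 0.5. The authors' fold enrichment, a ratio to each library's local background, did not always follow the counts. It is not scaled between the libraries. Of the 12505 gene-end regions with a peak in both, only 1754 had the higher fold enrichment in the control. Fold enrichment was 3.32 stretched and 2.68 control at Rflna and 3.96 and 2.86 at Fam83g, but 6.32 and 8.36 at Echdc2.

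Hair and skin keratin loci were among them. The start of Krt77, a type II keratin gene, had 28 stretched and 97 control counts (0.306, 0.193 to 0.470). Both other regions of Krt77 with at least 20 counts also had a scaled ratio below 1, with a median log2 of -1.36. A region 169 bp from Krtap16-1, a keratin-associated protein of the hair shaft, had 53 and 176 (0.319, 0.230 to 0.436). The 8 gene-end regions of the fixed list of inner root sheath and hair shaft markers, which does not hold these genes, summed to 688 stretched and 860 control counts, none was lower, and their part in these values was not tested.

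Antigen presentation genes appeared at this end too. The start of H2-T3, a non-classical MHC class I gene, had 61 stretched and 198 control counts (0.326, 0.241 to 0.437). An end of H2-Ab1, an MHC class II beta chain, had 27 and 87 (0.329, 0.205 to 0.511). H2-T3 has close relatives in its gene family, and the labels do not say how reads that match several copies were counted, so its counts are uncertain. The MHC differs between mouse stocks, and the genotypes of the 2 animals were not analysed here. On the myeloid list the MHC class II gene H2-Aa had no gene-end region with at least 50 counts, and none of the 3 regions of that list was lower.

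The remaining genes by this rule were Psmd3 (a proteasome subunit), Chmp6 (an ESCRT-III subunit), Pla2g4f (a cytosolic phospholipase), Sult5a1 (a sulfotransferase), Fibcd1 (a chitin-binding receptor), Insyn1 (an inhibitory synapse protein), Gm46294 and C130050O18Rik. Their scaled ratios ran from 0.301 at Psmd3 to 0.348 at Insyn1. Fold enrichment was higher in the stretched library at Psmd3, Sult5a1 and C130050O18Rik and higher in the control library at Chmp6, Fibcd1 and Insyn1. At Pla2g4f, with 32 stretched and 101 control counts, and at Gm46294, with 27 and 83, the authors listed a peak in the control library and none in the stretched library.

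**Figure D3:**
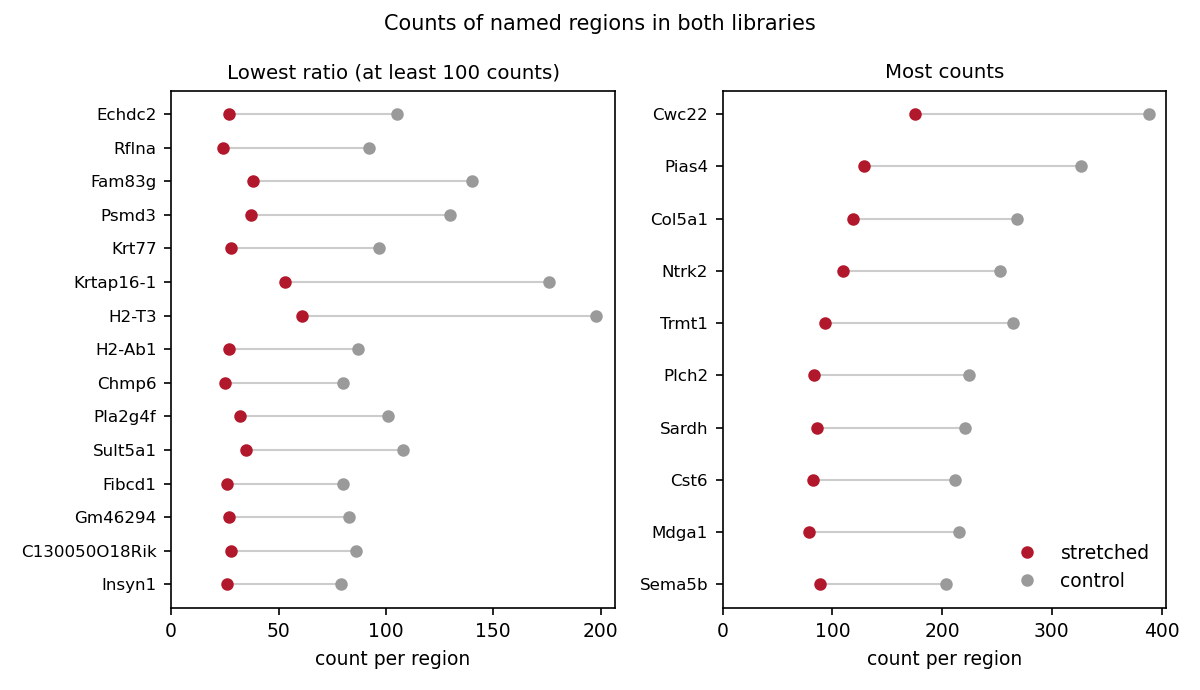
Counts of named lower regions in the stretched library (red) and the control library (grey), for the 15 regions with the lowest scaled ratio among those with at least 100 counts (left) and the 10 regions with the most counts (right). At Echdc2 the counts were 27 and 105, at Cwc22 175 and 389.

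The 10 lower regions with the most counts held regulators, matrix and neural genes. The far end of Cwc22, a spliceosome-associated factor, had 175 stretched and 389 control counts (0.476, 0.396 to 0.571). A region 454 bp from an end of Pias4, a SUMO ligase, had 129 and 327 (0.418, 0.338 to 0.514). The start of Col5a1, a chain of fibrillar collagen V, had 119 and 268 (0.470, 0.376 to 0.586). The stretched count was below the control count in each, and all 10 intervals stayed below 0.6. At Cwc22, Pias4 and Col5a1 the authors' unscaled fold enrichment was higher in the stretched library, as at most gene-end regions. Its medians over all gene-end regions with a peak in both libraries were 8.79 stretched and 6.59 control.

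Receptor and adhesion genes of the nervous system stood beside these. The start of Ntrk2, the receptor of the growth factor BDNF, had 110 stretched and 253 control counts (0.460, 0.365 to 0.578). The start of Sema5b, a semaphorin, had 89 and 204 (0.462, 0.356 to 0.595). That of Mdga1, a GPI-anchored adhesion molecule, had 79 and 215 (0.389, 0.297 to 0.506). A second Mdga1 region 505 bp from an end had 17 and 52 counts (0.346, 0.188 to 0.608), so both gene-end regions of Mdga1 were lower.

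Enzymes and an epidermal inhibitor completed the 10. An end of Trmt1, a tRNA methyltransferase, had 93 stretched and 265 control counts (0.372, 0.290 to 0.472). The start of Plch2, a phospholipase C, had 83 and 225 (0.391, with an upper bound of 0.505). Sardh, sarcosine dehydrogenase, had 86 and 221 counts at 532 bp from the outermost annotated start, over the start that RefSeq's promoter window uses (0.412, 0.317 to 0.531). Cst6, a cystatin that inhibits proteases of the cornified layer, had 82 and 212 (0.410, 0.313 to 0.531). Cst6 had no other region with at least 20 counts, whereas 13 of 13 others at Plch2 and 6 of 6 at Sardh also had a scaled ratio below 1. Among the 10, fold enrichment was also higher in the stretched library at Trmt1, Cst6, Sema5b and the start of Mdga1. It was higher in the control library at Ntrk2, Plch2 and Sardh.

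Genes of the epidermis and of signalling were tallied with fixed lists. The 15 programme lists hold 376 genes, of which 328 had a gene-end region. Of these 436 regions, 11 were lower (2.52%), near the 2.97% of all gene-end regions, and their median log2 scaled ratio was 0.22 against 0.24 over all. No list had more than 2 lower regions. The cell cycle (32 regions), YAP and TEAD (19), BMP and TGF-beta (26), Hedgehog (10), lipid (34) and housekeeping (18) lists had none.

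Chromatin regulators gave 2 of 32. The start of Tet1, which oxidises methylated cytosine, had 54 stretched and 125 control counts (0.457, 0.326 to 0.634). A region 967 bp from the start of Kmt2a, a histone H3 lysine 4 methyltransferase, had 15 and 56 (0.284, 0.149 to 0.508). Of the other regions with at least 20 counts along these genes, 3 of 3 at Tet1 and 5 of 8 at Kmt2a had a scaled ratio below 1.

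Keratinocyte transcription factors gave 2 of 55, both at far ends. Irx4, an Iroquois homeobox gene, had 16 stretched and 43 control counts (0.394, 0.207 to 0.714), while none of its 3 other regions was below 1. Nfix, a nuclear factor I gene, had 17 and 46 counts 659 bp beyond its far end (0.391, 0.210 to 0.696), a stretch that is also within 1 kb of Lyl1. The authors listed no peak there in either library.

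Signalling lists had single lower regions. Dll4, a Notch ligand, was lower at its start with 45 stretched and 114 control counts (0.418, 0.289 to 0.595), as 1 of 21 regions of the Notch list. Rspo1, a Wnt agonist, had 15 and 42 at its start (0.378, 0.195 to 0.696), as 1 of 42 regions of the Wnt list. Rbp4, the plasma retinol carrier, had 25 and 60 within 200 bp of its start (0.441, 0.265 to 0.714), as 1 of 20 regions of the retinoid list. The median log2 scaled ratio of the retinoid list was -0.39, below that of the Notch list at 0.07 and the Wnt list at 0.12. The retinoid regions also had fewer counts, with medians of 58 stretched and 83 control. These medians were 86 and 104 for the Notch list and 114.5 and 125 for the Wnt list. At Rspo1 and Rbp4 the authors listed a peak in the stretched library and none in the control library, against the direction of the counts.

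Junction, wound and follicle genes had 1 each. Cldn1, a tight junction claudin, had 23 stretched and 50 control counts 328 bp from its far end (0.487, 0.284 to 0.813). Mmp9, a gelatinase, had 25 and 58 (0.456, 0.274 to 0.741). Lhx2, a transcription factor of hair follicle stem cells, had 17 and 40 at its start (0.450, 0.239 to 0.812), 1 of 18 regions of the follicle list. The other 2 regions of Lhx2 were below 1 and those of Cldn1 above it.

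Markers of other cell types contributed 3 more. Prdm1, a repressor used as a sebaceous marker, had 25 stretched and 56 control counts 903 bp from its start (0.473, 0.283 to 0.770). Tek, the angiopoietin receptor of endothelium, had 27 and 60 at its start (0.476, 0.291 to 0.762). Krt18, a keratin of simple epithelia and Merkel cells, had 13 and 47 at its start (0.293, 0.145 to 0.550). With a trend on the count removed, the scaled ratio was 0.5002 at Prdm1, 0.501 at Tek and 0.520 at Cldn1, above the limit. The endothelial list summed to 273 stretched and 345 control counts over 5 regions and the Merkel list to 568 and 652 over 7, and their part in these values was not tested. The Srf and Pfn1 genes also had a lower region within 1 kb, but those regions lay nearer to Cul9 (29 and 77 counts) and Rnf167 (17 and 39 counts).

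Developmental transcription factors were also tallied. This grouping by gene symbol was made after the values were seen and supports no test. Of 173 gene-end regions of homeobox, SOX, FOX, PAX, ZIC and T-box genes, 19 were lower (10.98%, against 2.97% of all gene-end regions) and 3 had a scaled ratio of at least 2, and the median log2 scaled ratio was -0.21. The family had few counts. From 50 to 99 counts 18 of its 68 regions were lower (26.5%), against 11.1% of all, and from 100 up to 200 counts 1 of 60 (1.67%), against 3.09%. None of its 45 regions with 200 or more counts was lower. Onecut3, a homeobox factor of liver and nervous system, had 13 stretched and 73 control counts (0.189, 0.0959 to 0.343). Mnx1, a motor neuron factor, had 14 and 42 (0.353, 0.178 to 0.659), and Sox1, a neural progenitor factor, 23 and 54 (0.451, 0.264 to 0.747). Foxa2, Gsc, Hoxb9, Lbx1, Meox1, Uncx and a region near both Zic1 and Zic4 were also lower, with scaled ratios from 0.345 at Uncx to 0.5 at Lbx1.

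Other symbol families, also grouped after the fact, gave 7 of 34 regions for keratins and keratin-associated proteins, 4 of 12 for claudins and 3 of 26 for collagens, beside 2.97% of all gene-end regions. Under 200 counts they gave 6 of 20, 4 of 8 and 1 of 19, beside 6.35% of all, and these small counts were not tested. The keratin regions were those of Krt80, Krt18, Krt77, Krt86, Krt88, Krt12 and Krtap16-1. Krt80, a keratin gene of the type II cluster on chromosome 15, had 14 stretched and 55 control counts (0.270, 0.138 to 0.491). Cytosolic ribosomal protein genes gave 2 of 106, Rpl10a and Rps10, both at far ends and not at promoters, and numbered zinc finger genes gave 7 of 318, near the share over all gene-end regions.

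The matrix and growth factor genes named next were chosen for their values and stand for no group, since no list of matrix genes was tallied. Serpinh1, a collagen chaperone, had 88 stretched and 202 control counts at its start (0.461, 0.355 to 0.595). Loxl1, which cross-links elastin, had 24 and 68 (0.374, 0.224 to 0.603), and Eln, elastin itself, 18 and 50 (0.381, 0.209 to 0.665). Fgf3, Fgf4 and Fgf15, 3 neighbouring growth factor genes on chromosome 7, had 27 and 64, 34 and 76, and 63 and 138 counts, with scaled ratios from 0.447 to 0.483. They were the 3 lower of 17 regions of that family, beside 2.97% of all gene-end regions. Under 200 counts it was 2 of 11, beside 6.35% of all. At 200 or more counts it was 1 of 6, beside 0.347% of all. Wnt2, a Wnt ligand, had 75 and 180 (0.441, 0.332 to 0.581). It was not on the Wnt list, where 1 of 42 regions was lower.

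There were 12 genes with 2 lower gene-end regions and none with more, and with a trend on the count removed 1 region each of Capn11 (0.529), Cldn7 (0.518) and Fibcd1 (0.520) passed above the limit. The 12 genes were Anks1, Aqp2, Capn11, Cldn7, Exoc3l4, Fibcd1, Mchr1, Mdga1, Oaf, Plch2, Rab17 and Tubb3. Exoc3l4, an exocyst-related gene, was lower at both ends, with 77 stretched and 168 control counts at its start and 81 and 186 at its far end. Aqp2, a water channel known from the kidney, had 35 and 92 counts in one region at its far end and 55 and 133 in the next. Rab17, a small GTPase of epithelial trafficking, had 39 and 98 counts 394 bp inside its far end and 17 and 39 at 961 bp beyond it. Capn11, a calpain, had 15 and 36 counts at its far end and 18 and 39 beyond it. Cldn7, a claudin of simple and stratified epithelia, had 20 stretched and 44 control counts near its start (0.481, 0.269 to 0.834) and 12 and 41 near its far end (0.310, 0.148 to 0.601). Mchr1, the receptor of melanin-concentrating hormone, had 10 and 49 at its start (0.216, 0.0976 to 0.432) and 15 and 37 beyond its far end (0.429, 0.219 to 0.801). Tubb3, a neuronal tubulin had 30 and 80 at its start, within 1 kb of the melanocortin receptor gene Mc1r also (0.397, 0.252 to 0.611) and 33 and 74 near its far end (0.472, 0.303 to 0.721).

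Other regions along the same genes mostly had a scaled ratio below 1. For 306 of the 396 regions the gene held other regions with at least 20 counts, 1217 in all. Of these, 75.8% had a scaled ratio below 1, 25.6% were at most 0.5 and 2.38% at least 2. Along the genes of other gene-end regions with 50 up to 200 counts the shares were 56.6%, 11.7% and 5.89%. Of 79 lower regions whose gene had at least 5 others, 21 (26.6%) had all of them below 1, against 77 of 1006 (7.65%) for the others with 50 up to 200 counts. Restricted to lower regions with 50 up to 200 counts it was 15 of 70 (21.4%). A gene with 2 lower gene-end regions entered once for each, and each of them counted among the other regions of its partner. Anks1, Plch2 and Mdga1 thus entered more than once, each time with all others below 1. All these regions share the libraries, the scaling and often the locus, so the shares are descriptions.

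Single genes show how far this reached. Along Anks1, an adaptor of Eph receptors on chromosome 17, 21 of 21 regions had a scaled ratio below 1 and 13 were at most 0.5. Their counts summed to 992 stretched and 1718 control, a scaled ratio of 0.611 (0.565 to 0.661). The lower gene-end regions of Anks1 lay at its far end, and the region at its start had 152 and 205 counts, a scaled ratio of 0.785. Along Col5a1 14 of 14 regions were below 1, with 390 stretched and 819 control counts (0.504, 0.446 to 0.570). Along Plch2 it was 14 of 14, with 1052 and 1759 counts (0.633, 0.586 to 0.684). Ntrk2 differed, since 17 of its 21 regions were below 1 and 4 at most 0.5, so its start was among its lowest regions.

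All regions along Nfix and Cwc22 had a scaled ratio below 1, but the highest ratio of each lay near the gene's start. It was 0.855 at Nfix, with 113 stretched and 140 control counts 1.223 kb from the start. At Cwc22 it was 0.872, with 1497 and 1817 counts 0.472 kb from the start. The lower gene-end regions of both genes lay at far ends. Along Nfix, 24 of 24 regions were below 1, with 1411 stretched and 3310 control counts (0.451, 0.424 to 0.481). Along Cwc22, 21 of 21 were below 1 and 17 at most 0.5, with 5471 and 11233 counts (0.516, 0.499 to 0.533). At the lower Cwc22 region the pileup at the authors' summit was 59 fragments stretched and 110 control, yet the authors' fold enrichment was 2.17 and 1.55. Pileup over fold enrichment, a measure of the local background, was 27.2 in the stretched and 71.2 in the control library, the highest of all 396 regions, whose medians were 3.52 and 5.77. The background around Cwc22 was thus high in both libraries and higher in the control. Copy number was not measured in the 2 outbred animals.

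**Figure D4:**
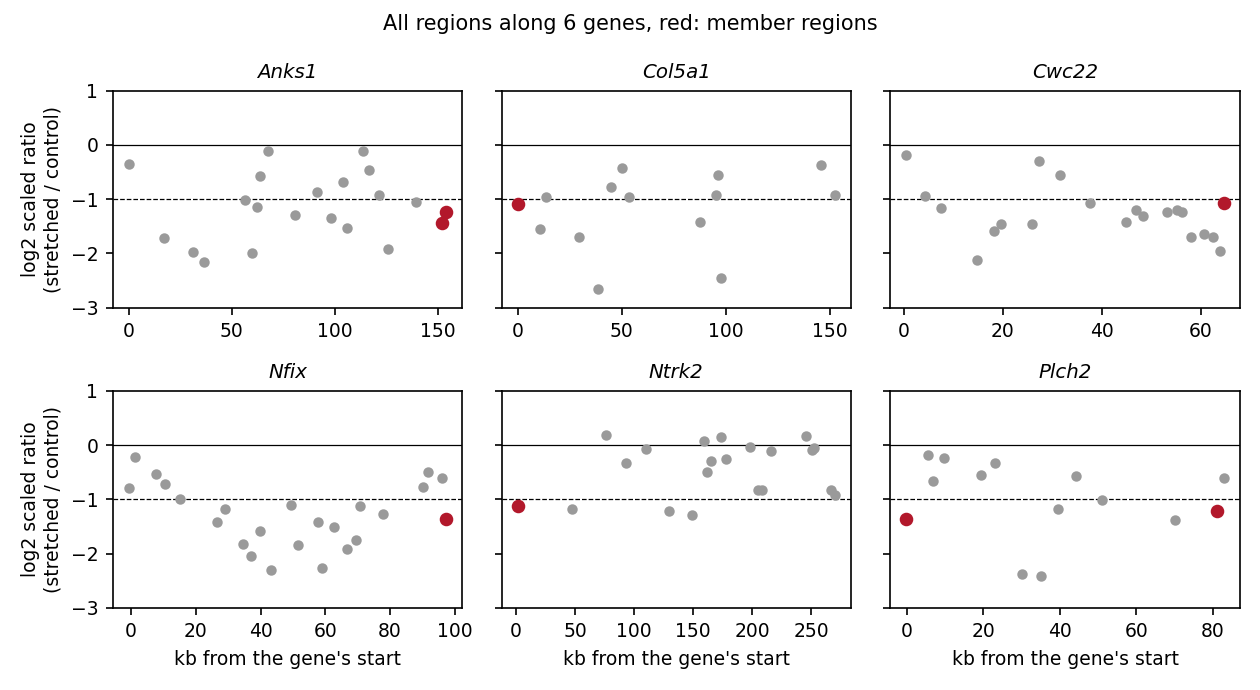
Log2 scaled ratio (stretched over control, vertical) of each region with at least 20 counts along 6 genes, by distance from the gene's start in kb (horizontal), with the lower gene-end regions in red and a dashed line at the limit of 0.5. All regions lie below 0 in Anks1, Col5a1, Cwc22, Nfix and Plch2, and 17 of 21 do in Ntrk2.

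The same direction extended beyond the genes. For each gene-end region the median log2 scaled ratio of its neighbours with at least 20 counts, other lower regions included, was taken by distance. Around lower regions this median was -0.48 within 10 kb, -0.32 from 10 to 50 kb, -0.33 from 50 to 100 kb and -0.28 from 100 to 500 kb. Around other gene-end regions with 50 up to 200 counts it was -0.06, -0.06, -0.07 and -0.07. From 100 to 500 kb away, 83.5% of lower regions had a neighbour median below 0, against 59.4% of those others. Neighbour medians within 10 kb lay below 0 for 79.1% of lower regions at starts and 76.7% of those at far ends.

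**Figure D5:**
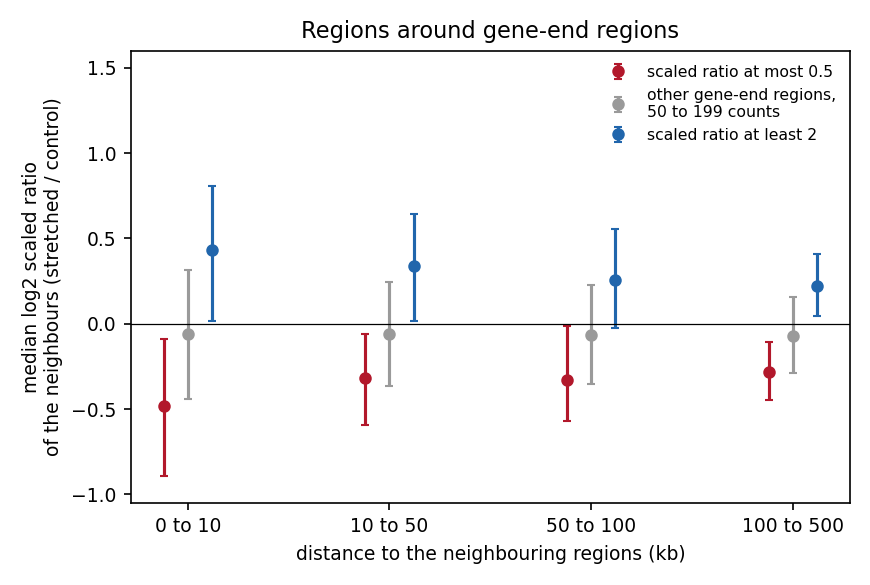
Median log2 scaled ratio of neighbouring regions (vertical, stretched over control) by distance in kb (horizontal). Points are medians and bars the quartiles for lower regions (red), other gene-end regions with 50 up to 200 counts (grey) and regions with a scaled ratio of at least 2 (blue). Around lower regions the median was -0.48 within 10 kb and -0.28 from 100 to 500 kb.

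Lower regions lay near each other and in gene-rich stretches. Of the 396, 91 (23.0%) had another lower gene-end region within 100 kb and 221 (55.8%) within 500 kb. Of the other gene-end regions with 50 up to 200 counts, 11.2% and 33.2% had a lower one that near. Within 500 kb on each side, the median number of protein-coding genes was 21 around lower regions, 15 around other gene-end regions and 9 around those at least 2. From 50 up to 200 counts, 3.53% of regions with 0 to 10 such genes were lower, against 6.62% with 11 to 20, 8.60% with 21 to 40 and 6.60% with 41 or more.

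Chromosomes differed. Chromosome 15 had 37 of 591 gene-end regions lower (6.26%) and chromosome 11 had 60 of 1163 (5.16%), while chromosome 6 had 6 of 692 (0.867%) and chromosome 3 had 6 of 678 (0.885%).

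In 5 stretches 6 lower gene-end regions lay within 500 kb of a central one. The positions given span the lower regions alone. The numbers of gene-end regions and of other regions cover 500 kb on each side of the central one. On chromosome 2 from 31024577 to 31951212 these were at Fnbp1, Hmcn2, Qrfp, Fibcd1 (2 regions) and Aif1l, 6 of 16 gene-end regions, with 184 stretched and 477 control counts. Of 83 other regions within 500 kb of the central one 76 (91.6%) had a scaled ratio below 1, with a median log2 of -0.92. On chromosome 9 from 57836547 to 58556319 they were at Arid3b, Cyp11a1, Islr2, Loxl1, Insyn1 and Cd276, 6 of 13, with 166 and 428 counts. Of 72 other regions there 58 (80.6%) were below 1. On chromosome 17 from 27629348 to 28330188 they were at Rps10, Pacsin1, Anks1 (2 regions), Scube3 and Rpl10a, and 92 of 109 other regions (84.4%) were below 1. The lower far ends of the ribosomal protein genes Rps10 and Rpl10a thus lay where most regions had a scaled ratio below 1. A stretch of chromosome 10 from 79873876 to 80643286 also had 6 lower regions, among 63 gene-end regions, and 59.8% of its 127 other regions were below 1. The fifth, on chromosome 11 from 101581996 to 102267931, held Tmem106a, Meox1, Sost, Mpp3, Pyy and Asb16, 6 of 28, and 73.1% of its 93 other regions were below 1.

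The authors' peak lists gave a further readout of the same libraries, in which the input file is named as without duplicates. Both libraries had a listed peak in 261 lower regions (65.9%), the control alone in 108 (27.3%), the stretched library alone in 12 and neither in 15. Of the other gene-end regions 94.7% had a peak in both and 1.35% in the control alone. At 50 to 99 counts the control-only share was 38.4% of lower and 6.98% of other regions. At 100 or more it was 5.26% and 0.249%. A choice by low ratio favours such control-only peaks. The 5 control-only regions with the highest fold enrichment in the control were at Pde8b (a phosphodiesterase, 7.61), Avpr1b (a vasopressin receptor, 7.56), Inpp4a (a phosphoinositide phosphatase, 7.02), Rnf112 (a brain ring finger protein, 6.57) and Tomm34 (a mitochondrial import factor, 6.56). Avpr1b had 9 stretched and 53 control counts and Rnf112 10 and 55, scaled ratios of 0.180 (0.0780 to 0.368) and 0.193 (0.0875 to 0.381). Pde8b had 27 and 59, and its scaled ratio of 0.485 was 0.510 with the trend removed.

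Pileup in fragments at the highest summit moved in the same direction as the counts. Both come from the same libraries whose counts chose the regions, so this follows largely from the choice and is no separate check. The stretched over control pileup ratio had a median of 1.32 where both libraries had a peak, and each ratio was divided by it. Of the 261 lower regions with a peak in both, 260 had a scaled pileup ratio below 1 and 174 (66.7%) at most 0.5, with a median of 0.459. Over all 12505 gene-end regions with a peak in both, 5.03% were at most 0.5. The median pileup was 18 fragments stretched and 28 control at lower regions. The authors' fold enrichment over local background differed less. At lower regions with a peak in both libraries its median was 4.43 in the stretched and 4.98 in the control library, and it was higher in the control in 163 of 261. At other gene-end regions it was 8.89 and 6.65, and higher in the control in 1591 of 12244. The local background, unscaled and over the regions with a peak in each library, had medians of 3.52 in the stretched and 5.77 in the control library at lower regions, and 6.91 and 6.75 over all gene-end regions.

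Sequence was not used to choose the regions. Over the 136 lower regions that overlap a RefSeq promoter window the median observed over expected CpG ratio was 0.642, against 0.789 over the 8378 others with a window. A ratio under 0.6 was found in 42.6% of lower and 22.0% of other windows. By count the values were uneven. From 50 to 99 counts the medians were 0.640 in lower and 0.635 in other windows, from 100 up to 200 counts 0.645 and 0.765, and at 100 or more 0.645 and 0.799. GC content differed little, with medians of 61.3% and 62.3%. The CpG ratio of lower windows rests on 41 windows from 100 up to 200 counts and on 53 at 100 or more.

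Short motifs were searched on both strands of these windows, as letters and not as bound sites. Each share in lower windows is set against the other windows of regions with 50 up to 200 counts, and then against all promoter windows. The first comparison is not at like counts. From 50 to 99 counts came 83 of the 136 lower windows but 780 of the 2732 others, and no motif share was taken within that bin. The ETS element CCGGAAG was in 7 of 136 lower windows (5.15%), 15.5% of the 2732 other windows and 11.6% of all 21263 of protein-coding genes. The NRF1 core GCATGCG was in 2 (1.47%), against 4.83% and 4.44%. The CREB core TGACGT was in 5.15%, against 10.7% and 8.49%, and the E-box CACGTG in 5.88%, against 10.5% and 7.84%. The SP and KLF element GGGCGG was in 58.1%, against 61.1% and 46.2%. The AP-1 element TGANTCA was in 5.88%, against 5.34% and 6.99%, and the TEAD element GGAATG in 13.2%, against 12.9% and 13.6%. The TTGGC element of nuclear factor I was in 55.1%, against 46.6% and 47.9%, CCAAT in 33.8%, against 31.3% and 38.2%, and TATAAA in 8.82%, against 8.78% and 12.6%. Letters of TTGGC can overlap those of CCAAT read on the other strand. The nuclear receptor element AGGTCA was in 7.35%, against 12.9% and 14.7%. The elements rarer in lower windows than in both comparison sets were thus those of ETS factors, NRF1, CREB, E-box factors and nuclear receptors. The last 3 shares rest on 7, 8 and 10 lower windows. Each of these strings except AGGTCA holds a CpG, as does GGGCGG, and the parts of CpG content and of the counts in the shares were not tested. None of these differences was tested.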

How the data were processed

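ATAC-seq libraries of 1 stretched and 1 untreated CD1 mouse were analysed, grouped by the treatment label. The build is GRCm38 and the tools include HTSeq, Picard, Bowtie2 2.2.6 and MACS2 2.1.0.20151222, as the submitters' processing notes list them with no order. The deposited counts are raw counts per merged region, 11803785 in the stretched and 8820178 in the control library, of which 10 regions with over 10000 counts held all but 6027023 and 5776423. No label says whether reads or fragments were counted, or with duplicates. Per the file headers, peaks were called on each library alone with a q cutoff of 0.05 and no control file, from 23876613 and 31944854 fragments. The deposited pileup is a signal in fragments, the deposited fold enrichment a ratio to that library's local background, and the -log10 p-values and -log10 q-values are the authors' as well.

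Region starts were turned to 1-based. RefSeq gives 21900 protein-coding genes, 17492 of them with a strand through their promoter windows, and none on chromosome 18. A region took the name of the gene with the nearest end, and for 27 of the 396 regions a further gene lay within 1 kb. Overlaps needed 1 bp. Members and lists were chosen with earlier results of these data known, and count bins, distance bins and symbol families after the values were seen. Named genes are the 15 lowest ratios at 100 or more counts, the 10 with the most counts, members of fixed lists, genes with 2 regions, 5 with a control peak alone and 4 on each side of the limit. Other names (Ltn1, the symbol families, matrix and growth factor genes, clustered genes) were chosen after their values were seen. Alternatives used TMM factors of edgeR 4.0.16, size factors of DESeq2 1.42.0 (R 4.3.3), total counts and a lowess trend (statsmodels 0.14.6). Intervals came from scipy 1.17.1, tables from pandas 2.3.3 and figures from matplotlib 3.10.9 under Python 3.11.15.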

Additional observations from a re-analysis of the deposited data

How the results depend on the processing

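The number of lower gene-end regions, 396, was 397 with TMM scaling, 390 with DESeq2 size factors, 399 with the lowess trend on the count removed (328 of them shared with the 396) and 573 with a distance of 2 kb. It was 1587 when scaled by total counts and 613 by totals outside the 10 large regions. It was 754 and 133 with count minimums of 20 and 100, 141 with a ratio limit of 0.4 and 1273 with one looser than 0.5, 202 for regions touching a gene end and 188 for gene starts alone. These limits and scalings widen or narrow the rule by their construction. The median scaled ratio of the 396 regions, 0.433, was 0.305 with total counts. With the trend removed, 68 of the 396 regions were above the limit of 0.5. They included 11 of 68 named lower regions: 0.529 at Capn11, 0.520 at Cldn1 and Fibcd1, 0.518 at Cldn7, 0.510 at Pde8b, 0.501 at Tek, 0.5002 at Prdm1, 0.542 at Vmn2r87 and 0.514 at Tmem94, Mylk and Lbx1.

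The share at a gene start, 63.9% of regions with known strand, was 46.3% when a promoter window had to overlap and 52.4% when the region's centre had to lie within 1 kb of a start. The share with a control peak alone, 27.3%, was 32.3% with a -log10 q of at least 5 and 5.26% at 100 or more counts. No paired analysis was possible because each group has 1 library, and for the same reason no replicate could be left out. Most lower regions hold under 100 counts, so single ratios near the limit are imprecise.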
